A study of Mus musculus with 3 samples.

Results

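Th17 cells, here the T cells of the colon that carried transcripts of Il17a or Il17f, were taken from droplet single-cell RNA sequencing of CD45+ leukocytes sorted from mouse colon. A barcode was counted as a Th17 cell when it had at least 200 detected genes, no more than 20% mitochondrial UMIs, at least 1 UMI of Il17a or Il17f, at least 1 UMI of a CD3 chain (Cd3e, Cd3d or Cd3g) and no UMI of Foxp3, Trdc, Cd8b1, Cd79a or Ms4a1. A UMI is a molecular tag that counts 1 captured transcript once. The rule found 111 of 16690 barcodes that passed the depth and mitochondrial filters. There were 14 in the healthy library (C), 54 in the library from low-grade intraepithelial neoplasia (T1) and 43 in the library from high-grade intraepithelial neoplasia (T3). The cells were chosen by their Il17a and Il17f UMIs, so the levels of both genes are given as a description.

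The mice were C57BL/6, 6 to 8 weeks old at the start of the model. T1 and T3 came from mice given azoxymethane (AOM, a colon carcinogen, 12 mg/kg) and then 3 cycles of 2.5% dextran sodium sulfate (DSS, which injures the colon lining), each with DSS for 7 days followed by water for 14. C came from normal colon of healthy mice, for which the labels give no such course beyond a shared protocol text. In each ratio to C, the neoplasia and the AOM and DSS treatment cannot be told apart. There was 1 library per group, the labels do not say how many mice each holds, and no test between conditions was possible. Intervals are exact, at 95%, and cover counting error only.

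Th17 cells are CD4+ helper T cells that secrete IL-17A and IL-17F, cytokines that act on epithelium and draw in neutrophils. Transcription factors such as the nuclear receptor RORα (encoded by Rora) and STAT3 (Stat3) take part in their programme, and IL-23, IL-1 and IL-6 sustain or induce it. In the gut they are found in the lamina propria, where they help to hold the barrier, and they accumulate in inflamed and tumour-bearing colon. Other cells also make IL-17, among them gamma-delta T cells and group 3 innate lymphoid cells, and the rule asked for CD3 and for no Trdc UMI to set these aside. A count of 0 Trdc UMIs in a shallow barcode does not show that the cell lacks it.

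The genes for both cytokines lie close together on mouse chromosome 1. Il17a (ENSMUSG00000025929) spans chr1:20730905-20734496 on the plus strand and Il17f (ENSMUSG00000041872) spans chr1:20777146-20790617 on the minus strand, and Il23r, the receptor chain for IL-23, spans chr6:67422932-67491855 on the minus strand (GENCODE M21, GRCm38). The bases just before the RefSeq starts of these 3 genes are printed because their transcripts mark the cells, 2 of them by the rule and Il23r by the data. Sequences are from RefSeq GRCm38.p6, 5′ to 3′ on the gene's own strand, and capitals mark AGGTCA or its reverse complement TGACCT, the core half-site that RORα and other nuclear receptors bind. The Il17a stretch is chr1:20730655-20730904 (plus strand, 250 bases). The Il17f stretch is chr1:20784271-20784494 (minus strand, 224 bases, shortened where an untranslated exon of another transcript begins). The Il23r stretch is chr6:67491856-67492105 (minus strand, 250 bases).
Il17a: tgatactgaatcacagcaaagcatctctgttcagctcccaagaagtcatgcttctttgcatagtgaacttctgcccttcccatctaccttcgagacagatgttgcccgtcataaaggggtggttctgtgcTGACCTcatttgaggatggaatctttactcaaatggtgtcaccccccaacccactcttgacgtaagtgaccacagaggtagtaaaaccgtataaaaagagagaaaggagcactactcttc
Il17f: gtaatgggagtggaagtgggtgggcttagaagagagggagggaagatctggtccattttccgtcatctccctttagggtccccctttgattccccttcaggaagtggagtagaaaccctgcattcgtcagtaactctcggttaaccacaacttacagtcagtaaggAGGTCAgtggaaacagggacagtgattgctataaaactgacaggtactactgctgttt
Il23r: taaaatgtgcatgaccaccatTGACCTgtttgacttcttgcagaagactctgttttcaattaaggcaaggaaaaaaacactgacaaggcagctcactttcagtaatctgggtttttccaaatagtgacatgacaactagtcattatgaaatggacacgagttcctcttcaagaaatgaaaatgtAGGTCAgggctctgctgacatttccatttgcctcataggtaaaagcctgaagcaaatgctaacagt
Il17a held 1 match, whose first base stood 120 bases before the start, Il17f held 1 at 58 bases, and Il23r held 2, at 66 and 229 bases. Of all 32851 RefSeq promoters in the table, 4607 (14.0%) held the letters on either strand within the 250 bases before the start. A match describes the letters in these windows and not a bound site.

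By the main rule, Th17 cells took a larger share of the T cells in both neoplasia libraries than in healthy colon. They were 54 of 2648 CD3+ barcodes in T1 (2.04%, interval 1.54 to 2.65) and 14 of 2853 in C (0.491%, 0.269 to 0.822), a log2 ratio of 2.06 (1.19 to 3.02). They were 43 of 2741 in T3 (1.57%, 1.14 to 2.11), a log2 ratio to C of 1.68 (0.78 to 2.66). Between T3 and T1 the log2 ratio was -0.38 (-0.99 to 0.23), so no difference in share was detectable at this depth under the rule as written. The same ratio was -0.79 (-1.53 to -0.07) with every barcode thinned to 1000 UMIs, -0.78 (-1.24 to -0.34) without the 5 exclusions and 0.11 (-0.51 to 0.71) over all passing barcodes. As a share of all passing barcodes, Th17 cells came to 0.233% in C, 0.879% in T1 and 0.947% in T3.

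Some of these barcodes could hold free RNA, the loose transcripts that enter every droplet. Among CD3+ barcodes without the 5 excluded genes, the shares with at least 1 Il17a or Il17f UMI were 1.17% in C, 4.54% in T1 and 2.76% in T3, at median depths of 5448, 5855 and 2955 UMIs. B-cell barcodes (Cd79a or Ms4a1 with no CD3), which should not make IL-17, held such a UMI in 11 of 2695 cases in C (0.408%), 22 of 3024 in T1 (0.728%) and 7 of 1019 in T3 (0.687%), at median depths of 4649, 4982 and 2682 UMIs. With at least 2 Il17 UMIs demanded, 8, 43 and 18 Th17 cells remained in C, T1 and T3, and 2, 1 and 0 B-cell barcodes did. Under that demand the log2 ratio of T3 over T1 was -1.31 (-2.19 to -0.48), that of T1 over C was 2.53 (1.43 to 3.83), and that of T3 over C was 1.23 with an interval from -0.05 to 2.64. When every barcode was thinned to 1000 UMIs before the rule was applied, the 5 exclusions were judged on the thinned counts. This can let in barcodes whose excluded genes were lost by thinning. Of CD3+ barcodes then without those genes, 0.631% of 1426 in C, 3.31% of 1479 in T1 and 1.97% of 1320 in T3 held an Il17 UMI. Left out as shallower were 66, 45 and 305 barcodes. In thinned B-cell barcodes the shares were 0.0373%, 0.250% and 0.504%. Single Il17 UMIs were found in barcodes of both kinds in every library, and the part of free RNA in them was not tested.

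**Figure D1:**
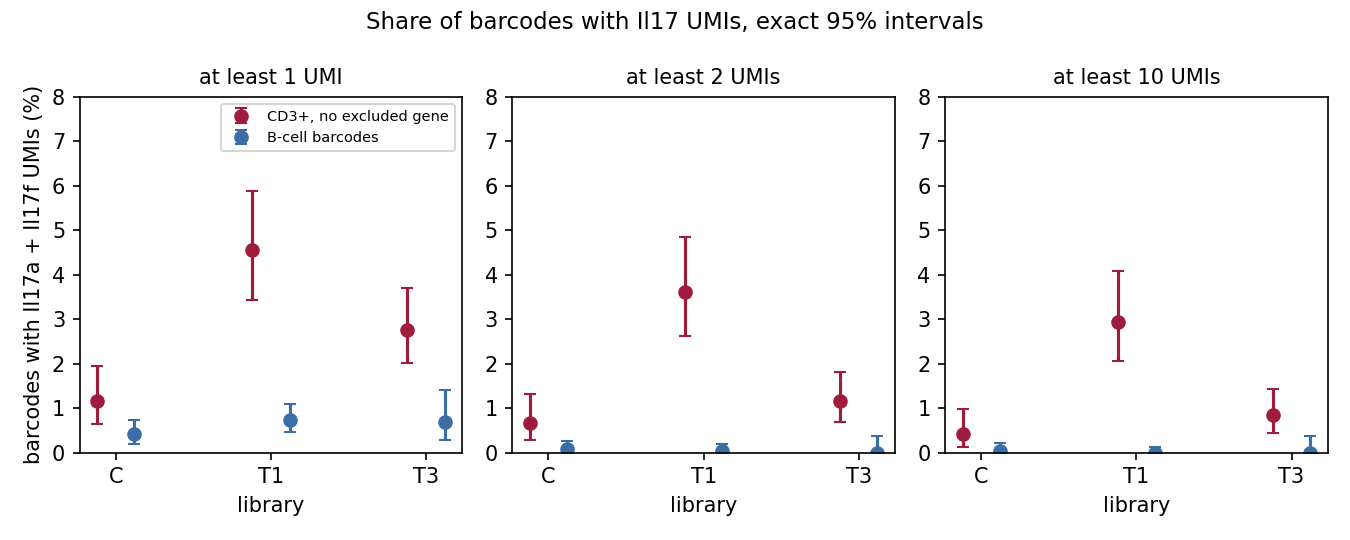
Share of barcodes (percent, exact 95% binomial intervals) with at least 1, 2 or 10 Il17a plus Il17f UMIs in C, T1 and T3, for CD3+ barcodes without the excluded genes and for B-cell barcodes. With at least 2 UMIs, 1 B-cell barcode remained in T1 and 0 in T3, and T1 stood above T3.

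The amount of Il17 transcript per cell differed widely within each library. In C the 14 cells held between 1 and 49 Il17 UMIs with a median of 4, in T1 the 54 cells reached 276 with a median of 18, and in T3 the 43 cells reached 108 with a median of 1. Just inside the threshold, with exactly 1 UMI, were 6 cells in C, 11 in T1 and 25 in T3, and just outside it, with 0 UMIs under the same exclusions, were 1185, 1135 and 1517 CD3+ barcodes. At least 10 UMIs were found in 5 cells in C, 35 in T1 and 13 in T3. Il17a alone was seen in 8, 31 and 32 cells of C, T1 and T3, both cytokines in 4, 22 and 7, and Il17f alone in 2, 1 and 4. Summed over the cells, Il17a stood at 1953, 4851 and 2954 CPM (the usual depth-scaled count, relative to all UMIs of the same cells) in C, T1 and T3, and Il17f at 351, 1136 and 572 CPM. The 3 cells with the most Il17 UMIs held 65.2% of them in C, 29.4% in T1 and 45.3% in T3.

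**Figure D2:**
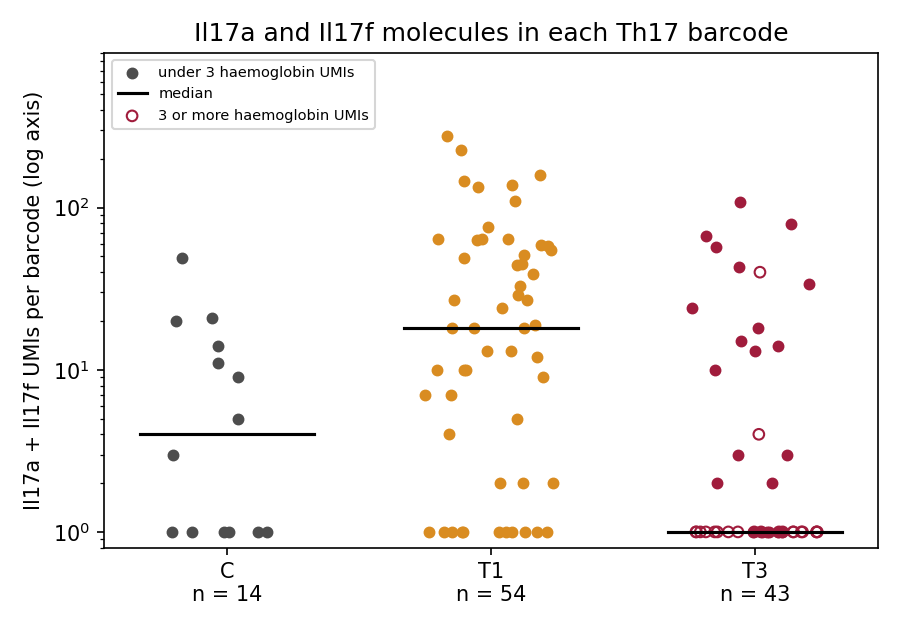
Il17a plus Il17f UMIs in each Th17 barcode (log axis) of C (n = 14), T1 (n = 54) and T3 (n = 43), with the median as a line; open circles carried at least 3 haemoglobin UMIs. The medians were 4, 18 and 1, and in T3 most open circles sit at 1 UMI.

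T3 stood apart in its haemoglobin. At least 1 haemoglobin UMI was found in 1 of 14 Th17 cells in C, 0 of 54 in T1 and 36 of 43 in T3. The 21 T3 cells with at least 3 haemoglobin UMIs had a median of 1276 UMIs, 19 of them held a single Il17 UMI and 4 held a Cd4 UMI. The 22 T3 cells with fewer had a median of 5201 UMIs and 11.5 Il17 UMIs, and 14 held Cd4. Without barcodes of at least 3 haemoglobin UMIs, Th17 cells were 1.38% of CD3+ barcodes in T3, a log2 ratio to C of 1.49 (0.46 to 2.57). Total depth over the Th17 cells was 59903 UMIs in C, 375985 in T1 and 159114 in T3, and median depth 4878, 7006.5 and 2304 per cell. No barcode sequence of a Th17 cell was shared between libraries, among 35 to 39 shared by each pair. The labels call the mice male, but Xist was found in 14 of 14, 54 of 54 and 36 of 43 Th17 cells of C, T1 and T3, and Ddx3y, Eif2s3y, Kdm5d and Uty were at 0 UMIs in them.

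Genes that the rule had not used set Th17 cells apart from other T cells. They were compared with the Il17-negative CD3+ barcodes of the same library, chosen with the same exclusions. Cd4, the helper T-cell co-receptor, was found in 9 of 14, 44 of 54 and 18 of 43 Th17 cells of C, T1 and T3, and Cd8a in 0, 2 and 1. Rora, which encodes RORα, was seen in 9, 44 and 25 cells, and its log2 ratio of Th17 over Il17-negative barcodes was 2.44 (1.78 to 3.03) in C, 2.07 (1.88 to 2.27) in T1 and 3.38 (3.1 to 3.65) in T3. Maf, a transcription factor of IL-17 and IL-10 producing helper cells, gave 2.60, 1.05 and 2.50 in the same order of libraries.

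Receptors and homing genes of the type 17 programme were likewise higher in Th17 cells than in the Il17-negative barcodes of every library. Il23r was at 66.8, 39.9 and 37.7 CPM in Th17 cells of C, T1 and T3 and at 0.309, 1.67 and 1.78 CPM in Il17-negative barcodes. Il1r1, the signalling receptor for IL-1, was found in 1 of 14 cells in C, 29 of 54 in T1 and 8 of 43 in T3. Ccr6, the receptor for the chemokine CCL20, was found in 7, 11 and 6 cells of C, T1 and T3, and its log2 ratio over Il17-negative barcodes was 5.59, 2.24 and 3.12. Ccr6 is also a B-cell gene, and it was at 200, 45.2 and 56.6 CPM in Th17 cells of C, T1 and T3, against 75.3, 96.8 and 56.6 CPM in B-cell barcodes. Cxcr6, a receptor of tissue-dwelling T cells, was at 518, 790 and 465 CPM in Th17 cells and 95.1, 143 and 30.1 CPM in Il17-negative barcodes.

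The genes with the largest ratio to Il17-negative barcodes in all 3 libraries, ranked by the smallest of the 3, began with Ppp1r14c, Rbm24, Ccr1, Cpe and Il23r. Ppp1r14c, an inhibitor of protein phosphatase 1, was found in 2, 17 and 6 Th17 cells of C, T1 and T3, at 83.5, 74.5 and 44.0 CPM, and in Il17-negative barcodes it was at 0, 0.911 and 0.198 CPM. Rbm24, an RNA-binding protein, was at 50.1, 74.5 and 119 CPM in Th17 cells and at 0, 1.37 and 0.989 CPM in Il17-negative barcodes. The ranking set no UMI minimum, and the C values of Ppp1r14c, Rbm24 and Il23r rest on few UMIs (4 for Il23r). Ccr1, a chemokine receptor, had log2 ratios of 6.02, 4.91 and 4.75. Il17re, a subunit of the receptor for IL-17C, Crmp1, Aqp3, Cpd, Cxcr6, Nmrk1 and the protease gene Furin completed the 12, and the smallest ratio of Furin was 2.39 (T1). As background, 17.3%, 7.69% and 17% of measured genes were at least 2-fold higher in Th17 cells of C, T1 and T3, and 5.45%, 6.93% and 8.38% were at least 2-fold lower. Tcf7 and Ccl5 were lower in Th17 cells. Tcf7, a factor of naive and memory cells, had log2 ratios of -1.57, -1.59 and -1.29 in C, T1 and T3, and Ccl5, a chemokine of cytotoxic cells, -3.27, -5.96 and -2.00.

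Cells with much Il17 held transcripts of several of these genes in a larger share than cells with a single Il17 UMI. Of the 13 T3 cells with at least 10 Il17 UMIs, 13 held Rora, 12 held Cxcr6, 12 held Maf and 13 held Icos. Of the 25 T3 cells with 1 Il17 UMI, 8 held Rora, 5 held Cxcr6, 7 held Maf and 5 held Icos. Median depth was 6058 and 1305 UMIs in these sets, and the part of depth in the difference was not tested. In T1, where depth was 6480 UMIs in the 35 cells with at least 10 Il17 UMIs and 7561 in the 11 cells with 1, Cxcr6 was found in 32 of 35 and 3 of 11, Il1r1 in 22 of 35 and 3 of 11, and Havcr2, an inhibitory receptor, in 20 of 35 and 0 of 11. Tcf7 went the other way in T1, with 3 of 35 and 6 of 11 cells. Both sets were small, and these counts come from cells of 1 library.

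The cytokines made beside IL-17 were mostly seen in a minority of cells. Il22, which acts on epithelial repair, was found in 1, 15 and 5 cells of C, T1 and T3, at 300, 886 and 132 CPM, and the value of C came from 1 cell. Il22 and Il17f were seen together in 7 of 54 T1 cells and Il22 and Il10 in 2. Ccl20, the ligand of CCR6, was at 317, 894 and 245 CPM in 3, 19 and 3 cells, and 1 T3 cell held 76.9% of the T3 UMIs. For T1 over C the log2 ratio was 1.56 (0.88 to 2.33) for Il22 and 1.49 (0.83 to 2.24) for Ccl20. Csf2, which encodes GM-CSF, was found in 2, 2 and 1 cells. Il21, a helper cytokine for B cells, was found in 2, 7 and 1 cells. Ifng was found in 2, 10 and 2 cells at 818, 120 and 56.6 CPM, but a single C cell held 98% of the Ifng UMIs of its library. With the richest Ifng cell left out in T1 and in C and total UMIs kept, the log2 ratio of T1 over C turned to 2.52. No direction is therefore read from Ifng.

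Signs of other cell types were not equal between libraries. The 6 fixed NK-cell markers summed to 0, 21.3 and 6.28 CPM in C, T1 and T3, and the 6 markers of group 3 innate lymphoid cells to 33.4, 221 and 69.1 CPM. Within the second list Nrgn led in T1 and T3, and Tnfrsf11a was at 0 in all 3 libraries. Plasma-cell markers summed to 1269, 473 and 233 CPM, of which Igha made up 835, 231 and 88.0 CPM. Neutrophil markers summed to 16.7, 79.8 and 534 CPM, with S100a8 and S100a9 at 0 UMIs in C and T1. Zbtb16, the factor of innate-like T cells, was found in 0, 0 and 1 cells, and Tcrg-C1, a gamma receptor constant gene, in 1, 14 and 10. With barcodes thinned to equal depth, Tcrg-C1 was in 0 of 13, 2 of 54 and 4 of 37 Th17 cells of C, T1 and T3. In Il17-negative barcodes it was in 66 of 1120, 18 of 1090 and 5 of 1218. The T3 shares were 10.8% (interval 3.03 to 25.4) and 0.411% (0.133 to 0.955), and the intervals overlapped in C and T1. Whether gamma-delta T cells were among the Th17 cells was not tested. The part of these signs of other cell types in the differences below was not tested.

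Between T1 and C, Th17 cells of the low-grade library carried more transcripts of Ctla4, Tnfrsf4, Crem, Nr4a3 and Areg, and fewer of Klf2. A gene was called past a 2-fold ratio of CPM, with 50 UMIs or more over both libraries and detection in at least 5% of the Th17 cells of 1 of them. Of 1156 measured genes, 137 (11.9%) were higher in T1 and 32 (2.77%) lower. In Il17-negative barcodes the shares were 0.999% and 1.70% of 7310 genes. T1 supplied most of the UMIs, so the minimum was met mainly through T1.

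Among 18 checkpoint and costimulation genes 9 were measured, 5 were higher in T1 and 0 lower, with a median log2 ratio of 1.44 against 0.08 over all measured genes and 0.72 for the same genes in Il17-negative barcodes. Over all measured genes 11.9% were higher and 2.77% lower. Some of the checkpoint list passed the UMI minimum through T1, where they were high, so the count and the median are a description. Ctla4, an inhibitory receptor, was found in 46 of 54 cells at 1883 CPM in T1, against 9 of 14 cells at 551 CPM in C, a log2 ratio of 1.77 (1.27 to 2.32). Il17-negative barcodes gave 1.65 for the same gene. Tnfrsf4, which encodes OX40, was at 386 CPM in T1 and 100 CPM in C (1.94, interval 0.79 to 3.41). Tnfrsf18, which encodes GITR, was at 170 CPM from 64 UMIs in T1 and 33.4 CPM from 2 UMIs in C (2.35, interval 0.44 to 5.43). Havcr2, which encodes TIM-3, had 51 UMIs in 22 T1 cells and 0 UMIs in C, at least 2.71-fold higher when C is set to a floor of 3 counts. Without the exclusion of the 5 genes, which adds Foxp3+ cells among others, the log2 ratio of Ctla4 was 0.86 and that of Tnfrsf18 0.65.

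Among 20 immediate early and related genes, 16 were measured, 7 were higher in T1 and 0 lower, with a median of 0.38. The median was 0.08 over all measured genes and -0.47 for the same genes in Il17-negative barcodes. Over all measured genes 11.9% were higher and 2.77% lower. Some of the list passed the UMI minimum through T1, where they were high, so the count and the median are a description. Crem, a cyclic AMP responsive repressor, was at 545 CPM in 37 T1 cells and 100 CPM in 4 C cells (2.44, interval 1.30 to 3.91), and Il17-negative barcodes gave 2.07. Nr4a3, a nuclear receptor induced by antigen receptor signals, was at 242 CPM in T1, from 27 cells, and at 33.4 CPM in C, from 2 UMIs in 1 cell (2.86, interval 0.96 to 5.93). Junb, an AP-1 subunit, was at 8679 CPM in T1 and 4090 CPM in C (1.09, interval 0.90 to 1.28), and its ratio was 0.87 with at least 2 Il17 UMIs. Without the 5 exclusions 5 of these 7 genes came under 2-fold, with 0.38 for Junb, 0.43 for Fosl2, 0.19 for Nr4a1, 0.82 for Rel and -0.089 for Ier2.

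Of 20 glycolysis and hypoxia genes 9 were measured, of which Tpi1, Pgk1 and Hilpda were higher, Eno1 was lower and 5 were not called. The list median was 0.47, against 0.08 over all measured genes and 0.28 for the same genes in Il17-negative barcodes. Over all measured genes 11.9% were higher and 2.77% lower. Hilpda, a lipid-droplet protein induced under low oxygen, had 85 UMIs in 23 T1 cells and 1 UMI in C (3.76, interval 1.24 to 9.08). Pgk1, a glycolytic enzyme, had 94 UMIs in 42 T1 cells and 2 UMIs in C (2.90, interval 1.01 to 5.97). Without the 5 exclusions these ratios were 0.18 and 0.76. Hif1a, the oxygen-regulated factor that also promotes Th17 differentiation, was at 569 CPM in T1 and 167 CPM in C (1.77, interval 0.86 to 2.85), and it was 1 of the 3 of 9 measured type 17 regulators that were higher, with Bhlhe40 (1.39) and Stat3 (1.14, interval -0.04 to 2.63). Without the 5 exclusions the ratio was 0.95 for Hif1a, 0.76 for Bhlhe40 and 0.30 for Stat3.

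Areg, which encodes the epidermal growth factor receptor ligand amphiregulin, had 378 UMIs in 15 T1 cells and 2 UMIs in 1 C cell, a log2 ratio of 4.91 (3.05 to 7.96). A single T1 cell held 47.9% of the T1 UMIs, and Il17-negative barcodes gave 0.28. Klf2, which keeps T cells in circulation, was at 144 CPM in 15 T1 cells, against 1052 CPM in 10 C cells, a log2 ratio of -2.87 (-3.42 to -2.32). Il17-negative barcodes gave -1.29. In B-cell barcodes Klf2 was at 2909, 857 and 835 CPM in C, T1 and T3. The part of free RNA in the Klf2 ratios was not tested. Cd69, which marks activated and tissue-resident cells, had a ratio of -1.01 (-1.45 to -0.55), which came under 2-fold in 5 alternatives (-0.996 to -0.62). Satb1, a chromatin organiser of T cells, had a ratio of 1.62 from summed UMIs and -0.15 from the mean of the cells' own CPM, so no direction is read from it. The 8 genes with the largest ratios by rule also took in Ubald2 (3.74), Ier5l (3.67), Tiparp (3.44), Pim3 (3.17), Tnfrsf1b (3.05) and Neb (3.02), each from 1 or 2 UMIs in C. Lower in T1 were Rcbtb2 (-1.69), Neat1 (-1.56), Cited2 (-1.47), Rnf225 (-1.44), Ccdc88c (-1.43), Rsrp1 (-1.41) and Itgal (-1.41), of which Cited2 rested on 1 C cell with 70.0% of its UMIs.

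Between T3 and C, Nr4a3, Crem, Hif1a and the receptors Il7r and Il18r1 were higher in T3. Klf2 and the AP-1 genes Fos, Fosb and Jun were lower. Areg was also higher in T3, with its UMIs in few cells. Of 569 measured genes 52 (9.14%) were higher in T3 and 19 (3.34%) lower; in Il17-negative barcodes 2.92% and 8.28% of 7129 genes were. This comparison uses the same C cells as the one above, so their values are set side by side and not read as separate evidence. Il7r, the receptor for the survival cytokine IL-7, was at 679 CPM in 21 T3 cells and 234 CPM in 5 C cells (1.54, interval 0.73 to 2.46), with 1.45 in Il17-negative barcodes. Il18r1, a chain of the IL-18 receptor, was at 409 CPM in 17 T3 cells and 117 CPM in 5 C cells (1.81, interval 0.68 to 3.18), with 0.27 in Il17-negative barcodes. Rora was at 911 CPM in T3 and 401 CPM in C (1.19, interval 0.56 to 1.87), and its ratio was 0.78 without the 5 exclusions and 0.82 by the mean of per-cell CPM.

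Areg had 169 UMIs in 3 of 43 T3 cells, against 2 UMIs in 1 of 14 C cells (4.99, interval 3.12 to 8.05), and Il17-negative barcodes gave -0.80. The share of Th17 cells with Areg was thus alike in T3 and C, and the ratio rests on the UMIs of few cells. Hif1a was at 647 CPM in T3 and 167 CPM in C (1.96, interval 1.02 to 3.06), Crem at 383 CPM and 100 CPM (1.94, interval 0.73 to 3.44) and Nr4a3 at 346 CPM and 33.4 CPM (3.37, interval 1.45 to 6.45). Of the 14 measured immediate early genes 5 were higher and 4 lower, with a median ratio within 0.01 of 0. Over all measured genes 9.14% were higher and 3.34% lower. Fos was at 277 CPM in T3 and 1202 CPM in C (-2.12, interval -2.70 to -1.56), Fosb gave -1.68, Jun -1.14 and the phosphatase gene Dusp1 -1.53. Il17-negative barcodes gave -1.67, -1.89, -2.14 and -1.30 for these 4 genes. Klf2 was at 151 CPM in T3 and 1052 CPM in C (-2.80, interval -3.54 to -2.10). B-cell barcodes held Klf2 at 835 CPM in T3 and 2909 CPM in C. With haemoglobin-carrying barcodes left out, the ratio was -3.99 for Klf2, -2.09 for Fos, 1.69 for Il7r and 1.96 for Il18r1. Ctla4 was at 1251 CPM in T3 and 551 CPM in C (1.18, interval 0.65 to 1.76), and its ratio came to 0.61 without the deepest 5% of barcodes and 0.16 without the 5 exclusions.

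**Figure D3:**
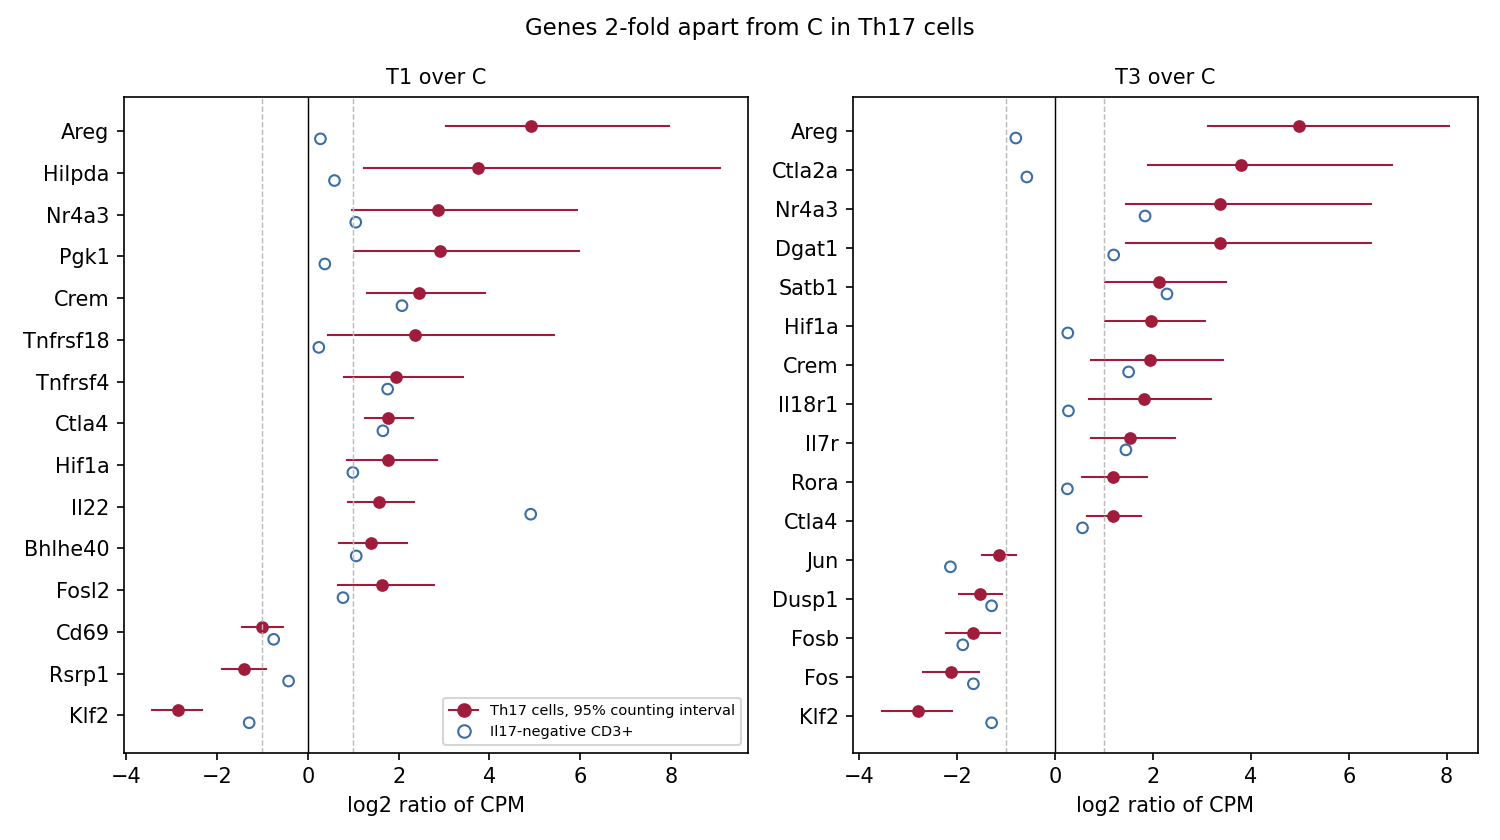
Log2 ratios of CPM for T1 over C (left) and T3 over C (right) in Th17 cells (filled, with 95% counting intervals) and in Il17-negative CD3+ barcodes (open); dashed lines mark 2-fold. Areg, Crem and Nr4a3 lay above and Klf2 below the 2-fold lines in both panels.

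Between T3 and T1, Th17 cells of the high-grade library had fewer transcripts of Il10, Il22, Ccl20, Gzmb and Lag3 and more of Il7r, Il18r1 and Cxcr4. Of 1481 measured genes 45 (3.04%) were higher in T3 and 76 (5.13%) lower, against 1.77% and 5.13% of 6999 genes in Il17-negative barcodes. T1 supplied most of the UMIs of this pair too, so a gene high in T1 met the minimum more easily. Il10, the anti-inflammatory cytokine, had 0 UMIs in the 43 T3 cells, which by a limit of 3 counts allows a share of cells with a UMI of up to 6.98% at this depth, and 124 UMIs in 15 of 54 T1 cells. It was at least 17.5-fold lower in T3 against a floor of 3 counts, and Il17-negative barcodes gave -3.90. Il22 was at 132 CPM in 5 T3 cells and 886 CPM in 15 T1 cells (-2.75, interval -3.46 to -2.11), with -2.71 in Il17-negative barcodes. Ccl20 was at 245 CPM in 3 T3 cells and 894 CPM in 19 T1 cells (-1.87, interval -2.38 to -1.39).

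Of 18 genes named in work on pathogenic Th17 cells 9 were measured, Gzmb, Lgals3, Cxcl3, Il22 and Ifng were lower in T3 and Il18r1 was higher. Over all measured genes 3.04% were higher and 5.13% lower. The list median was -1.08 against -0.04 over all measured genes and -1.58 for the same 9 genes in Il17-negative barcodes. Ifng was itself at -1.08 and at -0.077 without the 5 exclusions. For T1 over C, 4 of 9 measured genes of this list were higher and 1, Ifng, lower, with its sign changed in 3 alternatives. Over all measured genes of that pair 11.9% were higher and 2.77% lower. In both comparisons some of the list passed the UMI minimum through T1, where they were high. The counts and the median are therefore a description. Gzmb, a cytotoxic protease, had 3 UMIs in T3 and 50 UMIs in T1 (-2.82, interval -5.14 to -1.19). Lgals3, which encodes galectin-3, was at 31.4 CPM and 130 CPM (-2.05), and its 5 T3 UMIs came from 2 cells. Of the checkpoint genes Lag3, an inhibitory receptor, was at 81.7 CPM in 9 T3 cells and 415 CPM in 29 T1 cells (-2.34, interval -3.29 to -1.53), and Tnfrsf18 was at 50.3 CPM and 170 CPM (-1.76). Stat3, which relays IL-6 and IL-23 signals, was at 75.4 CPM in T3 and 221 CPM in T1 (-1.55, interval -2.56 to -0.67), with 0.14 in Il17-negative barcodes and -0.90 without the 5 exclusions. Isg15, an interferon-induced gene, was at 31.4 CPM in T3 and 184 CPM in T1 (-2.55, interval -4.21 to -1.25), and its ratio was -0.98 without the 5 exclusions. Ccr2, a chemokine receptor of inflammatory cells, was at 113 CPM and 351 CPM (-1.63), Pim3 gave -2.12, Abhd17a -2.06 and Cxcl3 -2.01.

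Higher in T3 was Il7r, at 679 CPM in 21 T3 cells and 184 CPM in 19 T1 cells (1.89, interval 1.44 to 2.34). Il18r1 was at 409 CPM in T3 and 136 CPM in T1 (1.59, interval 1.04 to 2.15), and its ratio was 0.89 by the mean of per-cell CPM. Il7r and Il18r1 were 2 of 4 called among 8 measured type 17 receptor genes, with Il1r2 (1.08), a decoy receptor for IL-1, and Tgfbr2 (1.05), and none was lower. Il1r2 came to between 0.023 and 0.94 in 4 alternatives and Tgfbr2 to between 0.89 and 0.95 in 4. Cxcr4, a chemokine receptor, was at 220 CPM in 13 T3 cells and 58.5 CPM in 17 T1 cells (1.91, interval 1.10 to 2.75), and 1 T3 cell held 40.0% of its UMIs. Ctla2a, a protease inhibitor, gave 1.78, Ahnak 1.51, Grap2 1.41, Myh9 1.37 and Tnfsf8, which encodes the CD30 ligand, 1.16, a value that came to 0.56 by the mean of per-cell CPM. With haemoglobin-carrying barcodes left out, the ratio was -2.35 for Il22, -2.33 for Lag3, 2.04 for Il7r and 1.75 for Il18r1. Without the 5 exclusions Cxcr4 came to 0.40.

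**Figure D4:**
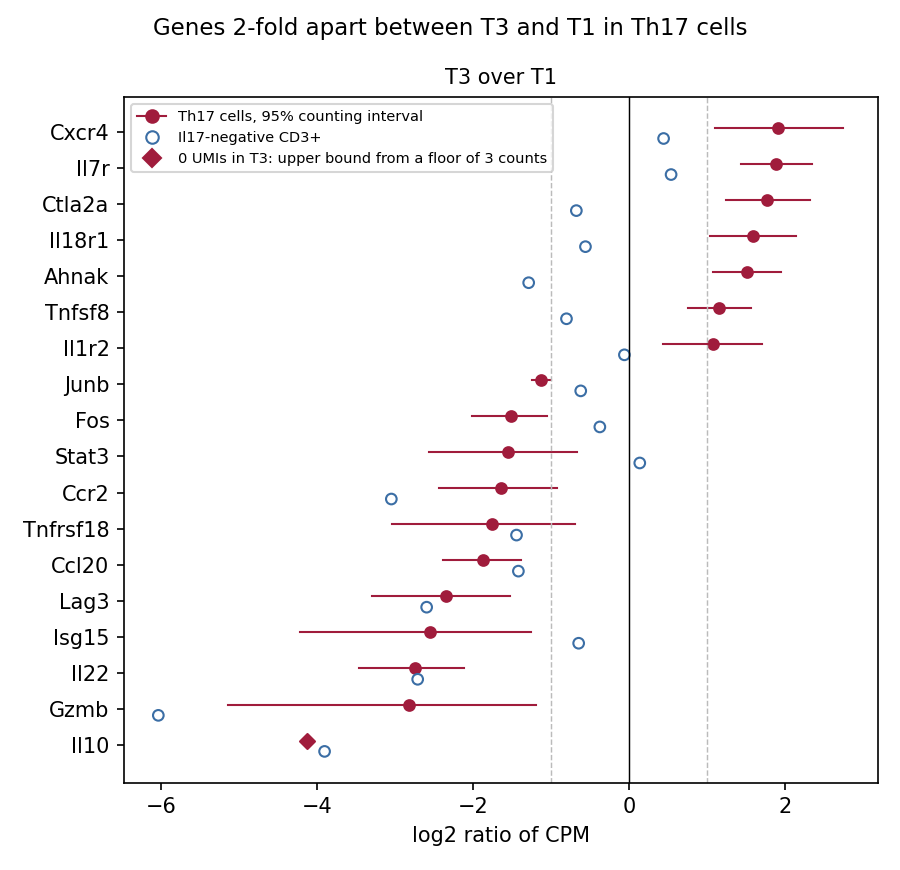
Log2 ratios of CPM for T3 over T1 in Th17 cells (filled, with 95% counting intervals) and Il17-negative CD3+ barcodes (open); the diamond for Il10 is a bound from a floor of 3 counts and dashed lines mark 2-fold. Il7r and Il18r1 lay above 2-fold in T3, and Il22, Lag3 and Gzmb lay below.

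The remaining lists concern T-cell identity, heat shock, leucine handling and proliferation. None of the 8 measured T-cell lineage genes was called in any of the 3 comparisons, with medians of 0.21 for T1 over C, -0.02 for T3 over C and -0.10 for T3 over T1. Of heat shock genes, 1 of 9 was called for T1 over C (Hspd1, lower), 1 of 8 for T3 over C (Hspa1a, lower, -1.01) and 0 of 10 for T3 over T1, and nothing is read from these single genes. Hspa1a came under 2-fold in several alternatives, with -0.69 without the deepest 5% of barcodes. Over all measured genes the shares higher and lower were 11.9% and 2.77% for T1 over C and 9.14% and 3.34% for T3 over C. For T3 over T1 the shares were 3.04% and 5.13%. The leucine list, taken because the study concerns leucine and the leucyl-tRNA synthetase Lars, had 3, 2 and 3 measured genes in the 3 comparisons and no call, too few to describe a group. The 10 proliferation genes summed to 351, 859 and 578 CPM in C, T1 and T3, of which Tubb5, a tubulin, made up 217, 455 and 321 CPM. Tubb5 was the only measured member for T1 over C (1.07, but 0.093 without the 5 exclusions). Mki67, a proliferation marker, was found in 2 of 14 cells in C, 3 of 54 in T1 and 3 of 43 in T3.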

How the data were processed

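CD45+ cells were made into 10x Genomics 3′ libraries, per the labels' protocols. The values deposited are raw UMI counts for every gene in every barcode. Tools in the submitters' processing notes, with no roles, are Seurat 3.1.4, Cell Ranger 3.1.0 and CASAVA 1.8, with the GRCm38 build. No source used here gives the annotation or says whether introns were counted, so overlapping genes are uncertain. The lowest deposited barcode held 500 UMIs, and total counts were 35489195, 37208603 and 15898397 in C, T1 and T3.

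Counts were summed over Th17 cells per library and given as CPM, a share of those counts. Log2 ratios have exact conditional intervals and shares have exact Clopper-Pearson intervals, both at 95% and covering counting error only; with 1 library per group no p-value was computed. A gene at 0 in 1 library was set to a floor of 3 counts in that library. Genes were matched by ID, since Areg and Bcl11b have other deposited symbols. No doublet caller was run. Barcodes with B-cell genes were excluded by the rule, and the deepest 5% were left out as an alternative.

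Named genes were list members with at least 20 UMIs over the 3 libraries, the 8 higher and 8 lower called genes with the largest ratio per comparison, and the 12 genes with the largest smallest ratio over Il17-negative barcodes. The last 2 sets left out receptor, ribosomal, mitochondrial and haemoglobin genes and genes whose CPM in B-cell barcodes was over 50% of that in Th17 cells. Some genes were described from detection counts after their values were seen (Csf2, Mki67, Zbtb16 and Cd8a). A few genes that the naming rule takes in are not reported here. The cells and lists were chosen with earlier results of these data known. Calculations used Python 3.11.15, numpy 2.4.6, scipy 1.17.1 and pandas 2.3.3, and the scripts were tested on simulated data.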

Additional observations from a re-analysis of the deposited data

Results flagged for a closer look

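Il17 transcripts also lay in barcodes that the rule left out. Of CD3+ barcodes that carried Cd79a or Ms4a1, 33 of 819 in T1 (4.03%, interval 2.79 to 5.61) and 17 of 566 in T3 (3.0%, 1.76 to 4.77) held an Il17 UMI, against 7 of 979 in C (0.715%, 0.288 to 1.47), which is above the level of the healthy library. In T1 21 of them held at least 2 Il17 UMIs and in T3 1 did, against 3 in C. Of CD3+ barcodes with Foxp3, 5 of 68 in C, 33 of 329 in T1 and 2 of 90 in T3 held an Il17 UMI.

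Named genes (8 in all) moved at least 2-fold in opposite directions in Th17 cells and in Il17-negative CD3+ barcodes of the same libraries, and these differences were not tested. Opposite calls over all genes measured in both sets were 2 of 1147 for T1 over C. They were 3 of 565 for T3 over C and 5 of 1471 for T3 over T1. Those calls asked for the UMI and detection minimum in both sets. The 8 named genes were not held to it in Il17-negative barcodes. For T1 over C, Nrgn was at a log2 ratio of at least 1.49 in Th17 cells (0 UMIs in C) and -1.13 in Il17-negative barcodes. Jchain was at -1.75 and 1.11, and Igha at -1.85 and 1.41, both plasma-cell genes. The direction of these 2 was not stable, with Igha between 0.057 and 3.09 in 4 alternatives and Jchain at -0.17 with at least 2 Il17 UMIs and 3.20 without the exclusions. For T3 over C, Il2rb, a chain of the IL-2 and IL-15 receptors, was at 1.84 and -1.32. For T3 over T1, Cxcl3 was at -2.01 and 3.68, Lilr4b at 1.55 and -1.37, Ahnak at 1.51 and -1.28 and Mdfic at 1.35 and -1.18.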

How the results depend on the processing

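Each condition was 1 library, so the spread between mice is unknown, and the 14 Th17 cells of C limit every ratio to C. No paired analysis was possible because each group holds 1 library and the groups share only the replicate number 1. The log2 share ratios to C stayed within their main intervals under every alternative run, at 1.91 to 2.91 for T1 and 1.06 to 2.02 for T3. The interval of T3 over C spanned no difference in some of them. It was -0.05 to 2.64 with at least 2 Il17 UMIs, -0.17 to 2.40 with Cd4 required and -0.14 to 3.28 with at least 10. The share ratio of T3 over T1 (-0.38) was -1.31 with at least 2 Il17 UMIs, -1.34 with Cd4 required and -1.48 with at least 10 Il17 UMIs, an alternative added after the data were seen.

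Counts of genes past 2-fold depended on the UMI minimum. At 20 UMIs there were 379 higher and 202 lower for T1 over C, 222 and 78 for T3 over C, and 242 and 271 for T3 over T1. At 100 UMIs these were 57 and 13, 19 and 10, and 17 and 27. Without the 5 exclusions 96 genes were lower for T1 over C and 36 for T3 over C, and for T3 over T1 126 were higher and 172 lower. With at least 2 Il17 UMIs 8 genes were lower for T3 over C, and with at least 10 there were 33 higher and 9 lower, and 15 higher for T3 over T1. Without the deepest 5% of barcodes 34 were higher for T3 over C. By the mean of per-cell CPM 34 were lower for T3 over C and 197 for T3 over T1. With the barcode richest in each gene left out, 219 were higher and 7 lower for T1 over C, 11 lower for T3 over C and 24 higher for T3 over T1. That setting took 1 of 14 cells from C but 1 of 54 from T1 and 1 of 43 from T3, with total UMIs kept. It can lower C more for that reason alone, so no direction is read from its counts. Other counts stayed within 1.5 times.

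Of 1735 ratios of the named genes over these settings, 15 changed sign, 118 moved beyond their interval and 1602 did neither, and 49 of 124 ratios never came under 2-fold. The sign changed for Ifng of T1 over C (2.70 with at least 2 Il17 UMIs, 2.42 with at least 10 and 2.52 without its richest barcodes) and of T3 over C (1.56 and 1.26 with at least 2 and 10). Igha of T1 over C was at 0.057, 3.09, 0.38 and 0.38 with at least 2 Il17 UMIs, without exclusions, with Cd4 required and with at least 10 Il17 UMIs. Without exclusions Jchain was at 3.20 and Ier2 at -0.089 for T1 over C. With at least 10 Il17 UMIs Rnf225 was at 0.43 for T1 over C and Hspa1a at 0.76 for T3 over C. Satb1 was at -0.15 by per-cell CPM and Cited2 at 0.087 without its richest barcodes, both for T1 over C. The cause of these changes was not tested. Centring on the median gene shifted ratios by 0.08, 0.04 and -0.04 for T1 over C, T3 over C and T3 over T1.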
